A study of Mus musculus with 2 samples.

Results

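The genes described are the 10 core members of the Myc, Max and Mxd network that the array table lists by symbol: Myc, Mycn, Mycl1, Max, Mxd1, Mxd3, Mxd4, Mxi1 and Mnt, together with Odc1, a classical target of the network. They are 10 of the 30774 gene identifiers in the table. Each was chosen by name and not by its values, although earlier results of these data were known. The study measured total RNA of B6 mouse embryonic stem cells (mESCs), which the labels trace to the inner cell mass of E3.5 embryos. Both cultures grew in serum medium that contained LIF, a cytokine acting through Stat3. One of them also received CHIR99021 (CHIR), a GSK3 inhibitor that turns on Wnt/β-catenin signaling, and the labelled treatment time was 12 h. Each condition was measured on 1 Illumina beadchip, so 2 arrays were compared and no difference has a replicate check.

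Myc proteins bind DNA only as dimers with Max, at short E-box sequences, where they recruit histone acetyltransferases and raise transcription of genes for growth and ribosome production. The Mxd proteins, Mxi1 and Mnt also dimerize with Max, occupy the same kind of site and recruit Sin3 and histone deacetylases. In mESCs, Myc is a known target of LIF and Stat3 and helps to sustain self-renewal. GSK3 is known to phosphorylate the Myc protein and to mark it for destruction. The arrays measured RNA, so that route is outside these data.

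The signals of the network differed little between the arrays. Of the 10 genes, 5 were detected: Mycl1, Max, Mxd3, Mnt and Odc1. Detected means a detection p-value under 0.01 on either array or both, and these 5 passed on both. The detection p-value sets a signal against the negative control beads of its own array. None of the 5 reached a signal 1.5-fold higher in LIF plus CHIR, against 4.11% of all 9615 detected identifiers. One of them, Mxd3, was at least 1.5-fold lower, against 4.02% of all. The median log2 fold change of the 5 was 0.09, and that of all detected identifiers was 0.00. The plot of signals by gene shows 1 set of members well above background on both arrays and 1 at background on both. Myc belongs to neither, with signals of 137 and 113 but detection p-values of 0.469 and 0.338. Because RNA was taken from whole cultures, fewer cells of a type and less RNA per cell cannot be told apart.

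**Figure D1:**
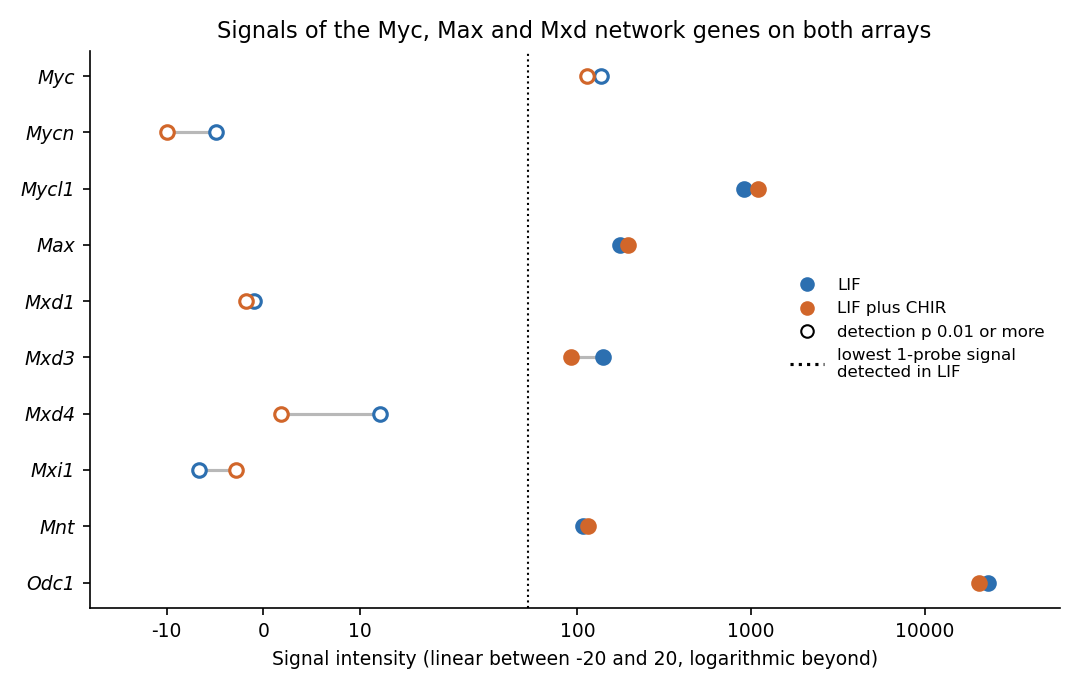
Signal intensity of each network gene on the LIF array (blue) and the LIF plus CHIR array (orange), on an axis that is linear near 0 and logarithmic beyond 20. Open circles have a detection p-value of 0.01 or more, and the dotted line is the lowest signal detected in LIF among identifiers with apparently 1 probe (51.9). The paired circles of each detected gene lie close together, and Myc has open circles although its signals, 137 and 113, lie right of the line.

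RefSeq start-site windows of 300 bases (250 before the start and 50 after it, build GRCm38.p6) were matched for 9 of the 10 genes, by Entrez gene number except for Mxi1 (by symbol), in 11 windows. No window was matched for Myc. Both strands were searched for the E-box CACGTG, its variant CACGCG, the GC box GGGCGG that Sp factors recognise, the Tcf/Lef core CTTTGAT and the Stat core TTCNNNGAA. Positions count the last base before the start as -1 and name the leftmost base of the match. CACGTG was found in the windows of Max at -3, Mnt at -123 and Mxd4 at -219, and in 7.15% of all 32851 windows. CACGCG was found at -20 for Mycl1 and at -180 and -101 for Odc1, and in 9.27% of all windows. GGGCGG lay in 10 of the 11 windows and in 35.7% of all, with 8 overlapping or separate matches for Mxd3. CTTTGAT and TTCNNNGAA lay in none of the 11 windows, and in 3.73% and 8.3% of all. These are matches of letters and say nothing of binding. Upstream stretches of the 5 detected genes are printed because they carry these letters, with the E-box in capitals for Max and Mnt, the CACGCG variant on either strand for Odc1 and Mycl1, and GC boxes for Mxd3.
Max, chr12:76962246-76962498, minus strand, to 3 bases past the start: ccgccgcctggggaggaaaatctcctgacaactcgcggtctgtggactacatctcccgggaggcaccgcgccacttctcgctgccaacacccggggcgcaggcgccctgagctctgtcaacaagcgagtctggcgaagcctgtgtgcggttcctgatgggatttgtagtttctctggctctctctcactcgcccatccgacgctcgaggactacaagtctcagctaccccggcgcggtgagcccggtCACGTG
Mnt, chr11:74830674-74830923, plus strand: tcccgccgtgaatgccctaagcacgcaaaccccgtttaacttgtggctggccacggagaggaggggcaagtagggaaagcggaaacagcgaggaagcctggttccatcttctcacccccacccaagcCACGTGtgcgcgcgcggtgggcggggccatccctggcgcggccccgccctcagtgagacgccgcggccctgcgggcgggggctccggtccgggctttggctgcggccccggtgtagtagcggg
Odc1, chr12:17544623-17544872, plus strand: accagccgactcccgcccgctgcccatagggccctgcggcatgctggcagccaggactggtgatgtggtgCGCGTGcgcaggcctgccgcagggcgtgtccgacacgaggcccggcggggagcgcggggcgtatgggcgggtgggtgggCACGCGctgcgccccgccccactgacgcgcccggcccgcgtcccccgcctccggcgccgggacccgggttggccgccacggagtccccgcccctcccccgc
Mycl1 (Mycl in RefSeq), chr4:122995681-122995930, plus strand: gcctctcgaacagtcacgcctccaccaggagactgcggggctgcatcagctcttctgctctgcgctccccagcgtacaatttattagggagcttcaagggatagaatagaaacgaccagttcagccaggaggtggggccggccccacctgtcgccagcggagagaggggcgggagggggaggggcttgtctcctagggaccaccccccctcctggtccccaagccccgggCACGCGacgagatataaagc
Mxd3, chr13:55329732-55329981, minus strand: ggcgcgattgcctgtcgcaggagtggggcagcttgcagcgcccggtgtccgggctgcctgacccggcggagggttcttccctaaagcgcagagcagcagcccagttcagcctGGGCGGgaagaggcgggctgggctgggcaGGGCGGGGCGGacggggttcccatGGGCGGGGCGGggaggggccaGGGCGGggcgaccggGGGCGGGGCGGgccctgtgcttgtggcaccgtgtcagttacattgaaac

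Of the 3 Myc genes, Mycl1 was the one detected. Mycl1 encodes L-Myc (Entrez gene 16918, band 4qD2.2 on chromosome 4). Its signal of 914 in LIF compared with 1099.6 in LIF plus CHIR, and the detection p-value was 0 on both arrays. The signal with CHIR was 1.20-fold higher, a log2 fold change of 0.27. Among the 2774 detected identifiers whose brighter signal lay between 1000 and 10000, the central 95% of log2 fold changes ran from -0.45 to 0.43. The difference of Mycl1 was inside that range.

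Mycn, which encodes N-Myc (Entrez gene 18109, band 12qA1.1), was at background on both arrays. After subtraction of the background its signal was -4.87 in LIF. With CHIR it was -9.93. The detection p-values of 0.504 and 0.715 mean that 472 and 669 of 936 negative control signals were at or above it. Its identifier appears to rest on 1 probe, so a level below the lowest detected signal of such identifiers (51.9 in LIF, 47.1 in LIF plus CHIR) was not detectable here. Whether the RNA was absent or the probe did not respond was not tested, and no fold change is given.

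Myc itself (Entrez gene 17869, band 15qD1) had a signal of 137 in LIF and 113 in LIF plus CHIR, yet detection p-values of 0.469 and 0.338. Among identifiers with 1 probe such values did not occur together. On the LIF array no such signal above 75.49 had a p-value over 0, and on the LIF plus CHIR array none above 70.3. The p-values of Myc had the form of 2 probes combined, in which the identifier's p-value is the chance that 2 random p-values sum to no more than the observed sum. Of the 7510 identifiers that appear to have several probes, the p-values on both arrays matched this form (within a relative tolerance of 2e-06 for all but the smallest p-values) for 2 probes in 56.4% and for 3 probes in 26.8%, while 16.8% matched neither these nor 4 probes. For Myc the sums were 907 of 936 in LIF (0.969) and 770 of 936 in LIF plus CHIR (0.823).

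If the signal is an average over probes, 137 or 113 requires at least 1 probe at or above it, where every identifier with 1 probe had a p-value of 0. The whole sum then belongs to the other Myc probe, which lay below most negative controls on both arrays. Identifiers with 1 probe at those p-values had median signals of -17.5 in LIF (22 identifiers) and -12.2 in LIF plus CHIR (34 identifiers). If both probes count equally in the average, the brighter Myc probe had about 292 in LIF and 238 in LIF plus CHIR. These 2 values are reconstructions from the deposited signal and p-value. On this reading 1 Myc probe was above all negative controls on both arrays and the other was at background on both.

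**Figure D2:**
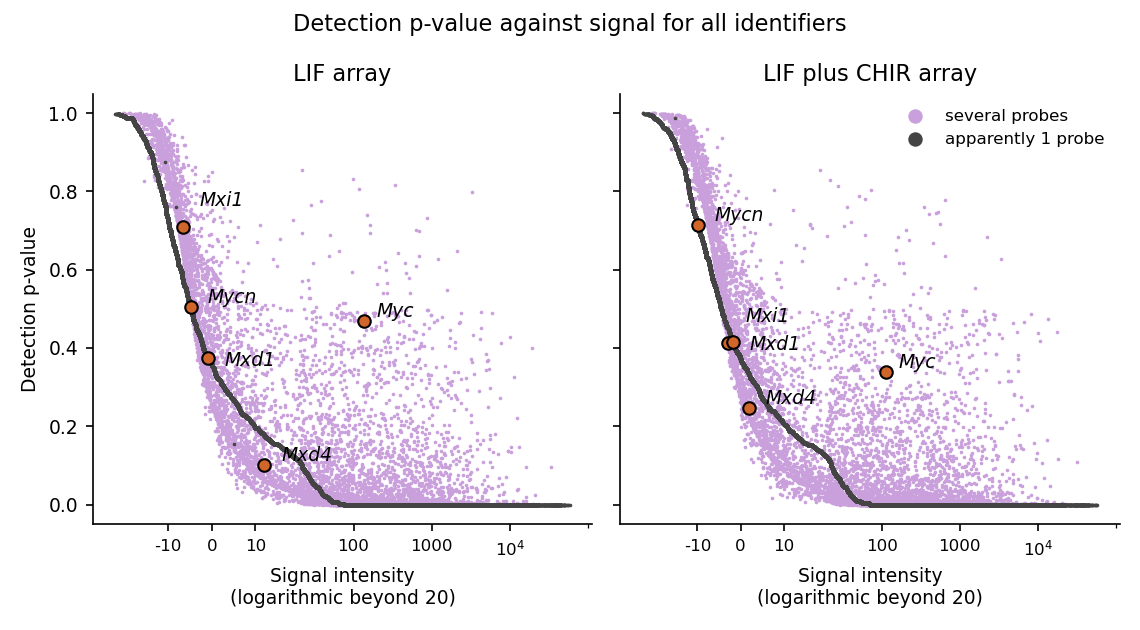
Detection p-value against signal intensity (logarithmic beyond 20) for all 30774 identifiers on each array, in dark grey where 1 probe is apparent and in violet where several are. Apart from a few points, identifiers with 1 probe form a single curve that reaches 0 near a signal of 75.49 in LIF and 70.3 in LIF plus CHIR. Mycn and Mxd1 lie on it, whereas Myc lies far to the right of it on both arrays.

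Between conditions, the deposited signal of Myc was 1.22-fold lower in LIF plus CHIR, a log2 fold change of -0.28. The reconstructed bright probe gave 1.23-fold lower, or -0.30. The central 95% of log2 fold changes ran from -0.75 to 0.78 for the 1387 detected identifiers with a brighter signal between 100 and 200, and Myc lay inside that range. Counting an identifier as detected from its signal alone (at least 51.9 in LIF or 47.1 in LIF plus CHIR), a rule chosen after the values were seen, made Myc the 6th detected member. It left the counts at 0 higher and 1 lower, against 2.55% and 2.88% of 10803 identifiers.

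Max, the shared dimer partner (Entrez gene 17187, band 12qC3), was detected on both arrays with p-values of 0. Max had a signal of 175 in LIF, and of 194 in LIF plus CHIR. The value with CHIR was 1.11-fold higher, a log2 fold change of 0.15, and lay inside the same range of -0.75 to 0.78.

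Mxd3 had the largest fold change of the members in the deposited signals. It encodes a Max dimerization protein that, unlike its relatives, is known from proliferating cells in S phase (Entrez gene 17121, band 13qB1). A signal of 140.2 in LIF stood against 91.3 in LIF plus CHIR, both with detection p-values of 0. The signal with CHIR was 1.54-fold lower, a log2 fold change of -0.62, which passed the limit of 1.5-fold by a small margin. Of the 1387 detected identifiers of that brightness, 5.34% were at least 1.5-fold lower and 4.9% at least 1.5-fold higher. The value of Mxd3 lay inside their central range of -0.75 to 0.78. With normexp background correction fitted on identifiers with 1 probe it was -0.54, under the limit. The fit on all identifiers gave -0.04, but its background SD of 588 in LIF exceeded both signals. That fit also brought Max, Mnt and Myc near 0, so it says little of Mxd3.

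Mnt, a repressor that is present in both resting and dividing cells (Entrez gene 17428, band 11qB5), had signals of 107 in LIF and 115 in LIF plus CHIR, with p-values of 0. They differed by 1.07-fold, a log2 fold change of 0.09. Of the repressors, Mnt and Mxd3 were thus detected on both arrays. The Mnt signals differed by 7.28. That is less than the background SD fitted on identifiers with 1 probe (15.4 in LIF, 15.3 in LIF plus CHIR), so no direction is read for Mnt.

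The repressors tied to cell cycle exit and differentiation were not detected in either condition. Mxd1 (Entrez gene 17119, band 6qD1) had a signal of -0.96 in LIF and -1.80 in LIF plus CHIR, with 350 and 389 of 936 negative controls at or above it (p-values of 0.374 and 0.416). Mxd4 (Entrez gene 17122, band 5qB2) had 12.1 in LIF and 1.82 in LIF plus CHIR. Its p-values of 0.101 and 0.246 had the form of 2 probes, with sums of 0.449 and 0.702. Mxi1 had -6.62 in LIF and -2.83 in LIF plus CHIR. Its p-values of 0.710 and 0.412 also had the form of 2 probes. All 3 stayed below the detected signals of both arrays, and no order between conditions can be read from them. Whether their RNA was absent or their probes did not respond was not tested. For Mxi1 the array annotation gives neither an Entrez number nor a chromosome.

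Odc1, ornithine decarboxylase, makes putrescine in the first step of polyamine synthesis and is a long-known target of Myc and Max (Entrez gene 18263, band 12qA1.1). Odc1 had 23220.3 in LIF, and 20482 in LIF plus CHIR. The signal with CHIR was 1.13-fold lower, a log2 fold change of -0.18. Among the 495 detected identifiers with a brighter signal of 10000 or more, the central 95% ran from -0.28 to 0.27, so that Odc1 was inside the range here too. At that brightness 0.808% of identifiers differed by at least 1.5-fold.

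**Figure D3:**
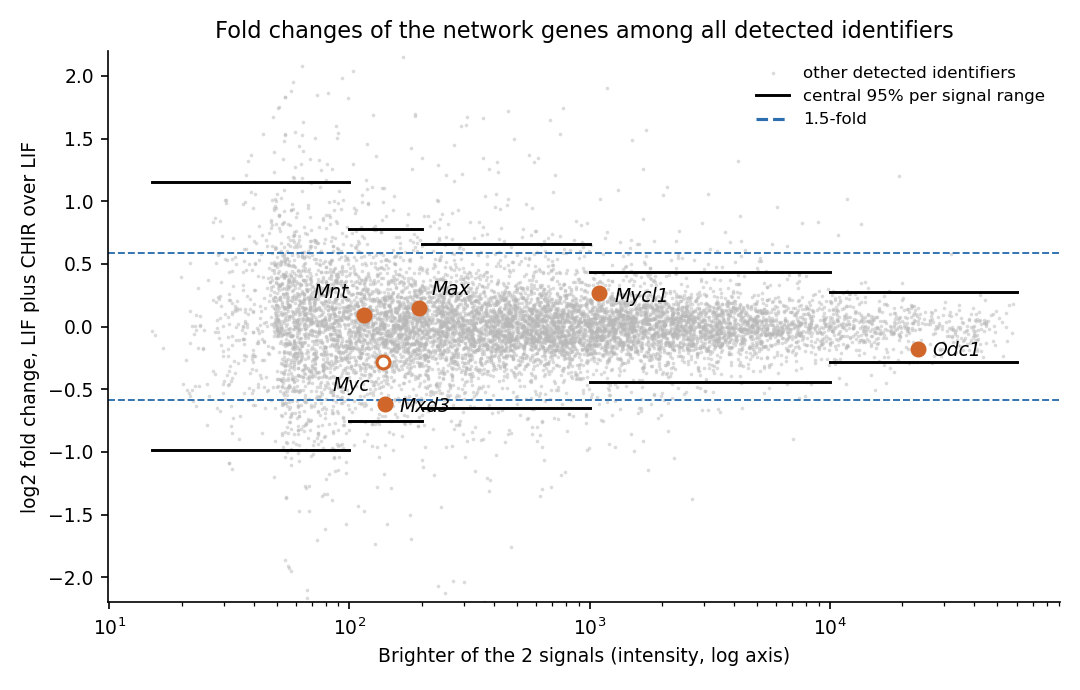
Log2 fold change of LIF plus CHIR over LIF against the brighter of both signals (log axis) for all 9615 detected identifiers (grey, 22 beyond the vertical limits not drawn) and for network genes (orange, Myc open). Black lines bound the central 95% in each signal range and blue dashed lines 1.5-fold. The 6 network genes lie between the black lines, and Mxd3 alone is past the dashed line.

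Other genes around the network were taken from lists of its partners, its cofactors, the proteins that control Myc turnover, and its targets. Every count past 1.5-fold in these lists stands beside the shares over all 9615 detected identifiers, 4.11% higher and 4.02% lower, and beside 1.26% and 1.19% at a brighter signal between 1000 and 10000. At such shares, a list of this size with no gene past the limit is not set apart from other genes. Of 4 further partners, Mga and Mlxipl were detected. Mga, which joins Max to a repressive Polycomb complex, had 133 in LIF and 135 in LIF plus CHIR (log2 fold change 0.01). Mlxipl, a glucose-responsive partner of Mlx, had 108 and 113 (0.07). Mlx and Mlxip were not detected.

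Among 18 cofactors and corepressors, 16 were matched to the array and 14 detected. None differed by 1.5-fold, and 7 were higher and 7 lower, with a median of 0.01. Kat2a, the histone acetyltransferase Gcn5, was the highest, with 2429 in LIF and 3373 in LIF plus CHIR (log2 fold change 0.47), just outside the central range of -0.45 to 0.43 for that brightness. Wdr5, a subunit of histone methyltransferase complexes that binds Myc, followed at 0.24, and Kat5, the acetyltransferase Tip60, at 0.20. At the other end were Mycbp (-0.25), the histone deacetylase gene Hdac2 (-0.17) and Sin3a (-0.16), through which the Mxd proteins repress. Sin3a had 4926 in LIF and 4408 in LIF plus CHIR.

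For proteins that act on Myc stability, 14 of 15 genes were matched and 9 detected, and none of the 9 differed by 1.5-fold (median 0.04). Gsk3b, which encodes a form of GSK3, the kinase that CHIR inhibits, had 457 in LIF and 461 in LIF plus CHIR, a log2 fold change of 0.01. Fbxw7, the ubiquitin ligase subunit that recognises Myc phosphorylated by GSK3, had 440 and 455 (0.05), although its p-value in LIF plus CHIR was 0.0146. Usp28, a deubiquitinase that acts with Fbxw7, was the lowest of the list, with 3019 in LIF and 2114 in LIF plus CHIR (-0.51). The central 95% of identifiers in its signal range ran from -0.45 to 0.43, so Usp28, alone of the 9, lay outside. A central 95% leaves some identifiers outside by construction. Pim1, a kinase gene induced by Stat3, was the highest, with 45.2 and 56.6 (0.32). Both signals were low, and Pim1 lay inside the central range of -0.98 to 1.15 for signals under 100. With the minimum signal taken from identifiers with 1 probe, its log2 fold change was 0.12. The phosphatase subunit gene Ppp2ca (0.08), the ubiquitin ligase gene Trim32 (0.05) and Skp2 (-0.08), whose product also ubiquitinates Myc, stood closer to 0. Gsk3a, the paralog of Gsk3b, had p-values of 0.0545 and 0.0203 and was not counted as detected.

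For targets of Myc in ribosome biogenesis the count was also 0. Of 26 genes, 24 were matched and 14 detected. Of the detected genes 7 were higher and 7 lower, and none differed by 1.5-fold. Their median was 0.00, as over all detected identifiers. The lowest were Pa2g4 (1345 in LIF, 1127 in LIF plus CHIR, log2 fold change -0.26), the snoRNP gene Nop56 (-0.14) and Rrp9 (-0.13), and the highest were Rcl1 (0.15), Pes1 (0.12) and Grwd1 (0.09). Of 26 targets in growth and metabolism, 24 were matched and 20 detected, with a median of 0.02, and 0 differed by 1.5-fold. The ends of that list were E2f2, a cell cycle transcription factor (360 in LIF, 259 in LIF plus CHIR, log2 fold change -0.47), and Tfrc, the transferrin receptor (15747 and 19991, log2 fold change 0.34). Next to them stood Pdk1, an inhibitor of pyruvate dehydrogenase (-0.28), and Ldha, lactate dehydrogenase (-0.12), and at the upper end Shmt2 of serine metabolism (0.27) and Tert, the telomerase catalytic subunit (0.24). The Tfrc value lay outside the central range of -0.28 to 0.27 for identifiers that bright. It was the 1 gene of the 20 outside its range, as were Kat2a of 14 cofactors and Usp28 of 9 stability genes. Of the 14 ribosome biogenesis genes and the 2 further partners detected, 0 lay outside. Since such ranges leave some identifiers outside by construction, Kat2a, Usp28 and Tfrc are not set apart from other genes.

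In the polyamine pathway around Odc1, 17 of 21 genes were matched to the array and 11 detected, with a median of -0.03. Amd1, Sat1, Oaz1 and Dohh had no matched identifier, so no value is given for them. Azin1, the antizyme inhibitor that protects Odc1 from degradation, was 1.58-fold lower, with 99.8 in LIF and 63.3 in LIF plus CHIR (log2 fold change -0.66). It was the 1 gene of the list past 1.5-fold, and at signals under 100 a share of 10.3% of detected identifiers was that much lower. Their central 95% ran from -0.98 to 1.15, so Azin1 lay inside. Azin2, its relative, went the same way with 106 and 76.5 (-0.47). Oaz2, an antizyme that acts against Odc1, had 1200.1 in LIF and 1006 in LIF plus CHIR (-0.25). Sat2, named as a polyamine acetyltransferase, had 150 and 119 (-0.33). Srm, the spermidine synthase and another Myc target, had 11093 and 10410 (-0.09). Mtap, which recycles the by-product of polyamine synthesis, had 2136 and 2366 (0.15), and Paox, a polyamine oxidase, had 0.01. Amd2 had 48.8 in LIF (p-value 0.015) and 71.0 in LIF plus CHIR, a log2 fold change of 0.54 whose LIF signal was not detected. Its sequence is close to that of Amd1, so the gene behind the signal is uncertain.

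The list of growth arrest genes that Myc is known or thought to repress, in part with Miz1, had members on both sides of 1.5-fold. Of its 10 genes, 9 were matched and 7 detected. With CHIR 1 of these was past the limit upward and 2 downward, and the median was -0.25, beside the 4.11% and 4.02% of all detected identifiers. All 3 lay outside the central range of -0.45 to 0.43 for their brightness. Gadd45g, a stress and growth arrest gene, had a signal of 1939 in LIF that was 337 with CHIR, 5.76-fold lower (log2 fold change -2.52). Cdkn1c, the inhibitor p57, had 4298 and 2733 (-0.65). Cdkn1a, the inhibitor p21, went the other way, from 710 in LIF to 1161 with CHIR, 1.64-fold higher (0.71). Ndrg2 stood at the limit, with 106 and 158 (0.58). Cdkn2b, the inhibitor p15, had 83.8 and 58.9 (-0.51). Gadd45a had 5166 and 4345 (-0.25) and Ndrg1 had 70.2 and 74.3 (0.08). These genes do not share a direction, and 4 of the 7 were lower.

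**Figure D4:**
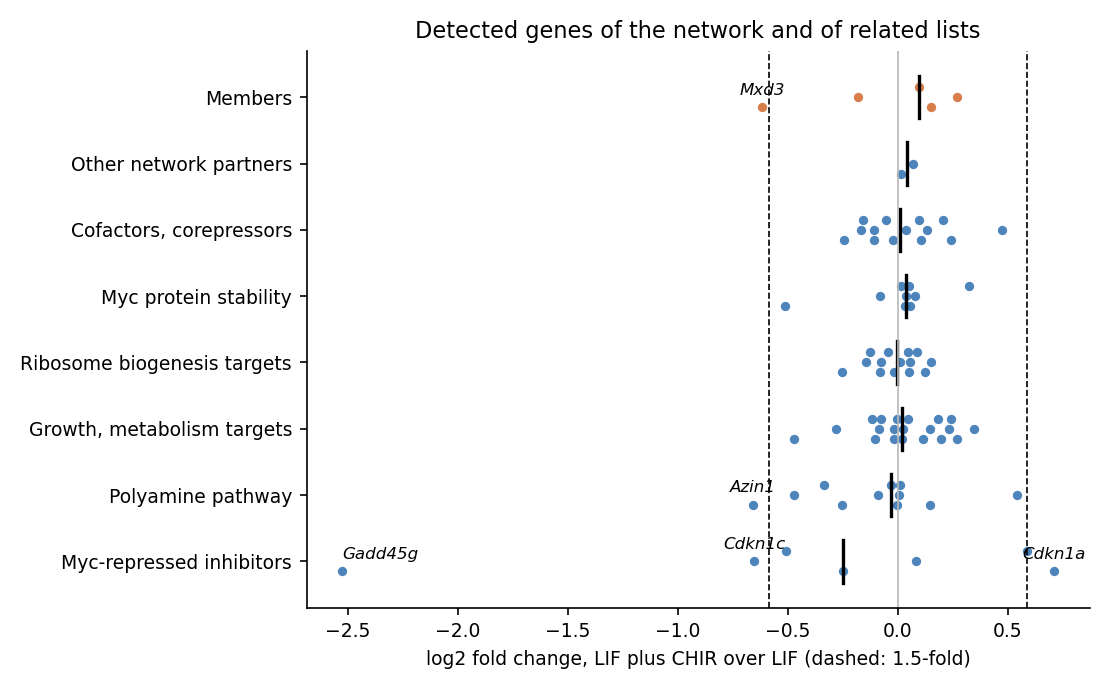
Log2 fold change of LIF plus CHIR over LIF for each detected gene of the network (orange) and of 7 related lists (blue). Vertical bars are list medians, dashed lines mark 1.5-fold, and points past them are named. The points of most lists crowd around 0, and the growth arrest genes spread from -2.52 to 0.71.

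The identity of the cells and of the treatment was checked on the same arrays. Of 10 mESC markers, 8 were detected, and none of them differed by 1.5-fold (4.11% and 4.02% of all detected identifiers did). Klf4 (log2 fold change 0.58), Nanog (0.55), Esrrb (0.36) and Zfp42 (0.08) were higher with CHIR, and Utf1 (-0.49), Fbxo15 (-0.30), Pou5f1 (-0.13) and Dppa3 (-0.04) were lower. Of these 8, 4 lay outside the central 95% for their brightness, Klf4, Nanog and Utf1 outside -0.45 to 0.43 and Esrrb outside -0.28 to 0.27. Sox2 and Tdgf1 did not pass detection. The Sox2 signals, 441 (LIF) and 400 (LIF plus CHIR), came with p-values of 0.0503 and 0.276. For Tdgf1 the same arrays gave 26.6 and 14.6, at p-values of 0.0737 and 0.158. The signals of all 10 markers summed to 42324 in LIF, against 43135 with CHIR. No fibroblast marker was detected by p-value (0 of 7), although Thy1 had 222 and 225 with p-values of 0.354 and 0.302. Of 6 primitive endoderm markers, Sox7 was detected, at 45.9 and 59.0, and the defining genes Gata4, Gata6 and Sox17 were not. Of 6 trophectoderm markers, 3 were detected, and Elf5, Eomes and Hand1 were not. Psx1 (listed as Rhox6) had 835 in LIF and 556 in LIF plus CHIR, just past 1.5-fold lower (-0.59), while Krt8 (-0.16) and Tfap2c (0.07) were within the limit. The summed signals in LIF and LIF plus CHIR were 258 and 256 for the fibroblast list and 121 and 106 for primitive endoderm. For trophectoderm they were 4424 and 4283, of which Tfap2c alone held 3175 and 3329. What part such cells had in the values above was not tested. Of 5 genes listed to check the treatment, 3 were detected: Axin2, Sp5 and Cdx1. These 3 were at least 1.5-fold higher on the array labelled LIF plus CHIR, against 4.11% of all detected identifiers. Sp5 (log2 fold change 4.05) was picked by the study from these arrays as raised by CHIR, so its passing was fixed in advance. The list was made with earlier results of these data known, so it is no independent check of the label. Axin2, a feedback target of Wnt/β-catenin signaling, was 3.75-fold higher, and Cdx1 had a log2 fold change of 3.68. Lef1 and Nkd1 were not detected.

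**Figure D5:**
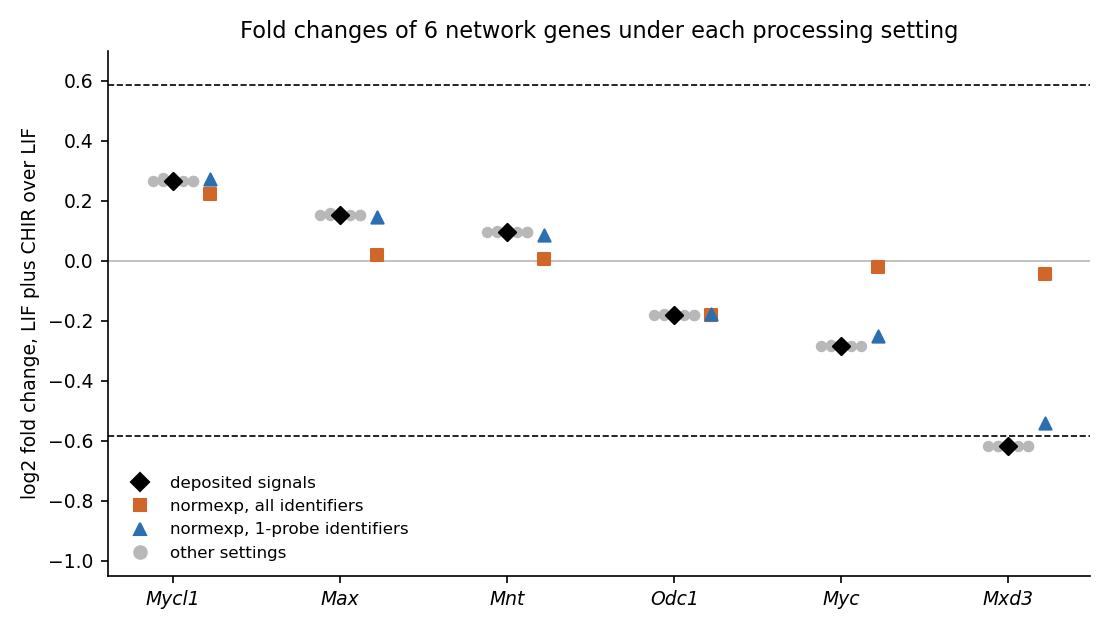
Log2 fold change of LIF plus CHIR over LIF for 6 network genes under each processing setting, with dashed lines at 1.5-fold. Black diamonds are the deposited signals, coloured symbols the normexp background corrections and grey circles the other settings, which lie on or beside the diamonds. Normexp fitted on all identifiers brings Max, Mnt, Myc and Mxd3 near 0 and changes Mycl1 and Odc1 little.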

How the data were processed

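Total RNA of 2 cultures was hybridized to Illumina beadchips, 1 per condition. The authors deposited a signal intensity on a linear scale, background-subtracted and with nearly equal distributions between arrays (the medians were 10.5 and 10.4), and a detection p-value for each identifier. The software and the normalization are not given in the sources used here. The table used is labelled as not normalized. A shorter table of 11702 identifiers, labelled as normalized, held the same values for the identifiers in both (0 differed). The shorter table gave no value for Myc. Fold changes are ratios of the deposited signals for identifiers whose detection p-value was below 0.01 on either array or both, after signals below the lowest detected one (15.1 in LIF, 14.8 in LIF plus CHIR) were raised to it. Myc is given as a plain ratio. An identifier was taken to have 1 probe where both p-values were whole multiples of 1 over 936 (tolerance 0.001 of a control). A p-value of 0 on both arrays does not tell the number of probes.

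Python 3.11.15, pandas 2.3.3, numpy 2.4.6 and matplotlib 3.10.9 were used, and limma 3.58.1 in R 4.3.3 for normexp (offset 16) and quantile normalization. The code was tested on simulated data. Of 154 list entries 133 matched by symbol and 9 by Entrez number. The genes and lists were chosen with earlier results of these data known. The rule named all members, list genes past 1.5-fold, otherwise the 3 highest and 3 lowest, and all detected markers. Genes named for their role were chosen after their values were seen. Differences have no p-value, because the spread between cultures was not measured.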

Additional observations from a re-analysis of the deposited data

How the results depend on the processing

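With the deposited signals, 0 of the 5 detected members were at least 1.5-fold higher and 1 was at least 1.5-fold lower. The count of higher members was 0 under each of 11 alternatives. The count of lower members was 0 with normexp on all identifiers, 0 with normexp on identifiers with 1 probe (chosen after seeing the data) and 0 at a limit of 2-fold, and 1 under the other 8. The gene concerned is Mxd3, which moved from -0.62 to -0.04 and -0.54 under these normexp corrections. Settings that changed only the p-value limit, the minimum signal, the detection rule or the table could not alter the values of the 5. Their detection p-values were 0 on both arrays and their signals lay above every minimum. For these 5, agreement under those settings was fixed in advance, as was 0 higher at 2-fold. The background SD fitted on all identifiers was 588 (LIF) and 586 (LIF plus CHIR), against 15.4 and 15.3 on identifiers with 1 probe. The median log2 fold change of the detected members stayed between -0.04 and 0.10. Over the alternatives run, Mycl1 stayed between 0.22 and 0.28, Max between 0.02 and 0.16, Mnt between 0.01 and 0.10, Myc between -0.28 and -0.02, and Odc1 at -0.18. The ends of Max (0.02), Mnt (0.01) and Myc (-0.02) came from normexp on all identifiers, whose background SD exceeded their signals. Normexp on all identifiers left 55 of all detected identifiers higher and 49 lower, from 395 and 387. Detection by signal gave 275 and 311, a p-value under 0.05 gave 682 and 684, detection on both arrays gave 203 and 227, and the higher minimum signal gave 247 and 273. No paired analysis was possible because there is a single array on each side. The number of arrays limits the precision of every value.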

Other observations

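The mismatch between signal and detection p-value seen for Myc was not particular to it. Of 8445 identifiers with a signal of at least 100 on both arrays, 625 had a detection p-value of 0.05 or more on both, and all 625 appear to have several probes. They include genes of the lists above. Npm1, which encodes the nucleolar chaperone nucleophosmin, had 15917 in LIF and 18497 in LIF plus CHIR with p-values of 0.0959 and 0.116. Nop58, a box C/D snoRNP protein, had 6499 and 6157 with p-values of 0.180 and 0.276. Trrap, a scaffold of Myc-bound acetyltransferase complexes, had 110.3 and 111 with p-values of 0.313 and 0.171. Counted by signal, a rule chosen after the values were seen, the detected ribosome biogenesis genes numbered 19 in place of 14 and the cofactors 16 in place of 14, and none of either list differed by 1.5-fold.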
